A study of Mus musculus with 53 samples.

Results

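The genes described here lie in one stretch of distal mouse chromosome 6, from position 124600000 to 137300000 of the GRCm38 genome. They were taken by position and level: a gene belonged to the window when its start fell between those limits and its mean level over all libraries was at least 1 CPM (read counts scaled to a common library total). The count table held 453 genes of the window, of which 132 met the level, among 55421 gene identifiers in all. The members comprised 103 protein-coding genes, 10 processed pseudogenes, 6 TEC gene models (an annotation class that awaits experimental evidence), 4 antisense genes, 4 lincRNAs, 2 unprocessed pseudogenes and 1 each of 3 other classes, and their mean levels ran from 1.03 to 2440 CPM with a median of 13.7. A further 94 genes of the window had no read in any library. The window had been singled out as a run of possible passenger genes, a term for genes that travel with a neighbouring stretch of chromosome through breeding. The counts hold no alleles, so the origin of the stretch was not tested and the genes are called here by their position.

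RNA was sequenced from bulk mouse intestine in 53 libraries, 1 per mouse, in 11 groups. All mice carried VillinCreER, a tamoxifen-inducible Cre recombinase that the Villin promoter directs to the intestinal epithelium, so the wild-type (WT) controls carried the transgene too. At day 30 after induction, proximal colon was taken from 4 WT mice (WT d30), 4 Alk5fl/fl mice (A d30; Alk5 is the TGF-beta receptor gene Tgfbr1), 4 Alk5fl/fl mice given sulindac at 0.4 g/L, 5 BrafV600E/+ Alk5fl/fl mice (BA d30) and 5 BA mice given ampicillin, neomycin and metronidazole at 1 g/L each with vancomycin at 500 mg/L. Proximal colon tumours came from 4 BA mice and normal proximal colon from 3 further WT mice. Small intestine at day 4 came from 10 APCfl/fl mice and 6 WT mice, and these groups and all colon groups were labelled as mixed C57BL/6J at backcross generation N6. Tumours of 5 Apcfl/+ mice and small intestine of 3 WT mice (WT SI) were labelled as inbred C57BL6/J at N9, 99.8%. By the study's methods mice entered at 6 to 12 weeks of age; the labels do not give the age or litter of each library.

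The window begins beside the complement genes and holds several neighbourhoods of known function. Gapdh, Tpi1 and Eno2 encode enzymes of glycolysis, the pathway that breaks down glucose, and lie close together with Cd4 and Lag3, which mark T cells. Further along is the natural killer gene complex, which encodes lectin-like receptors of natural killer and T cells (the Klr genes) and the lectins they recognise (the Clec2 genes), and which is known for differences in gene content between inbred mouse strains. Beyond it lie Cdkn1b, a brake on the cell cycle, the epithelial genes Emp1 and Gprc5a, and Gucy2c, the guanylin receptor of the gut lining.

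The libraries were compared by the level of Gm13394, a processed pseudogene of Gapdh that is not itself in the window: it lies at chr2:28933610-28934609, whereas Gapdh lies at chr6:125161715-125166467. A processed pseudogene is a copy of a spliced mRNA set back into the genome, so its reads can be hard to tell from those of the parent gene. In the GENCODE M21 transcripts the 1000 bases of Gm13394 aligned to the Gapdh-201 transcript with 1 difference and no gap, an identity of 99.9%. Cut into words of 36 bases, the read length, 929 of the 965 words of Gm13394 also occurred in Gapdh, and the other 36 were exactly those that contain the differing base. The difference, A438C, counts positions from 1 at the start of Gapdh-201 and gives the Gapdh base first. The stretch around it is shown because, within the 1000 aligned bases, only a read that covers this base tells the 2 genes apart by itself. The reads came in pairs, so the other read of a pair may also tell them apart. Of the words of Gapdh-201, 75.1% occur in Gm13394 and the rest do not. The stretch falls in the coding part of Gapdh-201, positions 408 to 467, and at positions 316 to 375 of Gm13394, with the differing base in capitals.
Gapdh: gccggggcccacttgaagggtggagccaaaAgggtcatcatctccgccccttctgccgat
Gm13394: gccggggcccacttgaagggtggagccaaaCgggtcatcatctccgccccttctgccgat

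Library totals ran from 10005066 to 32824795 assigned reads, apart from 1 APCfl/fl d4 library (replicate 1) with 516985, in which 3 counts correspond to 5.80 CPM. The epithelial markers Vil1, Epcam, Cdh1 and Krt8 were all detected, with a summed level of at least 3838 CPM in every library. The summed small intestine markers were at 24.35 CPM in 1 Apcfl/+ tumour library, against 3512 CPM at the median of that group. Summed over whole genes, Tgfbr1 ranged from 33.4 to 63.5 CPM in A d30 and from 35.2 to 68.2 CPM in WT d30; the counts do not resolve deleted exons, so this checks nothing about recombination, and the same holds for Apc and Braf. In bulk tissue, fewer cells of a type and less RNA per cell cannot be told apart.

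Gm13394 split the 53 libraries without any value in between. It measured 45.5 to 224 CPM in 33 libraries and 0 to 3.83 CPM in the other 20, so the limit of 10 CPM could be moved to 5 or 20 without changing a library. In WT d4 it measured 0.781, 0.521 and 1.43 CPM in replicates 1 to 3 and 54.0, 126 and 117 CPM in replicates 4 to 6, although all 6 mice carry the same label. The APCfl/fl d4 group was mixed in the same way, with 0, 0.687, 0.663 and 0.968 CPM in replicates 1 to 4 and 69.7 to 224 CPM in replicates 5 to 10. Among the BA tumours, replicates 1, 3 and 4 measured 60.6, 50.4 and 50.6 CPM and replicate 2 measured 3.83 CPM. The remaining 8 groups were uniform: all libraries of A d30, A d30 with sulindac, BA d30, BA d30 with antibiotics and WT SI lay over the limit, and all of WT d30, WT colon and the Apcfl/+ tumours lay under it.

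Gapdh, the member that shares its sequence with Gm13394, ran the other way. In WT d4 it measured 94.0, 94.5 and 98.4 CPM in replicates 1 to 3 and 47.8, 31.1 and 27.2 CPM in replicates 4 to 6. In APCfl/fl d4 it was 121 to 149 CPM in the 4 libraries under the limit and 29.7 to 69.8 CPM in the 6 libraries over it. The sum of both genes overlapped, at 55.5 to 150 CPM in libraries under the limit and 91.1 to 266 CPM in libraries over it. As a share of the reads of both genes, Gm13394 made up at most 3.55% under the limit and at least 42.0% over it. Over the limit the shares themselves fell in separate places: in the day 30 colon 6 libraries had shares of 42.0 to 46.2% and 12 had shares of 80.0 to 87.3%.

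**Figure D1:**
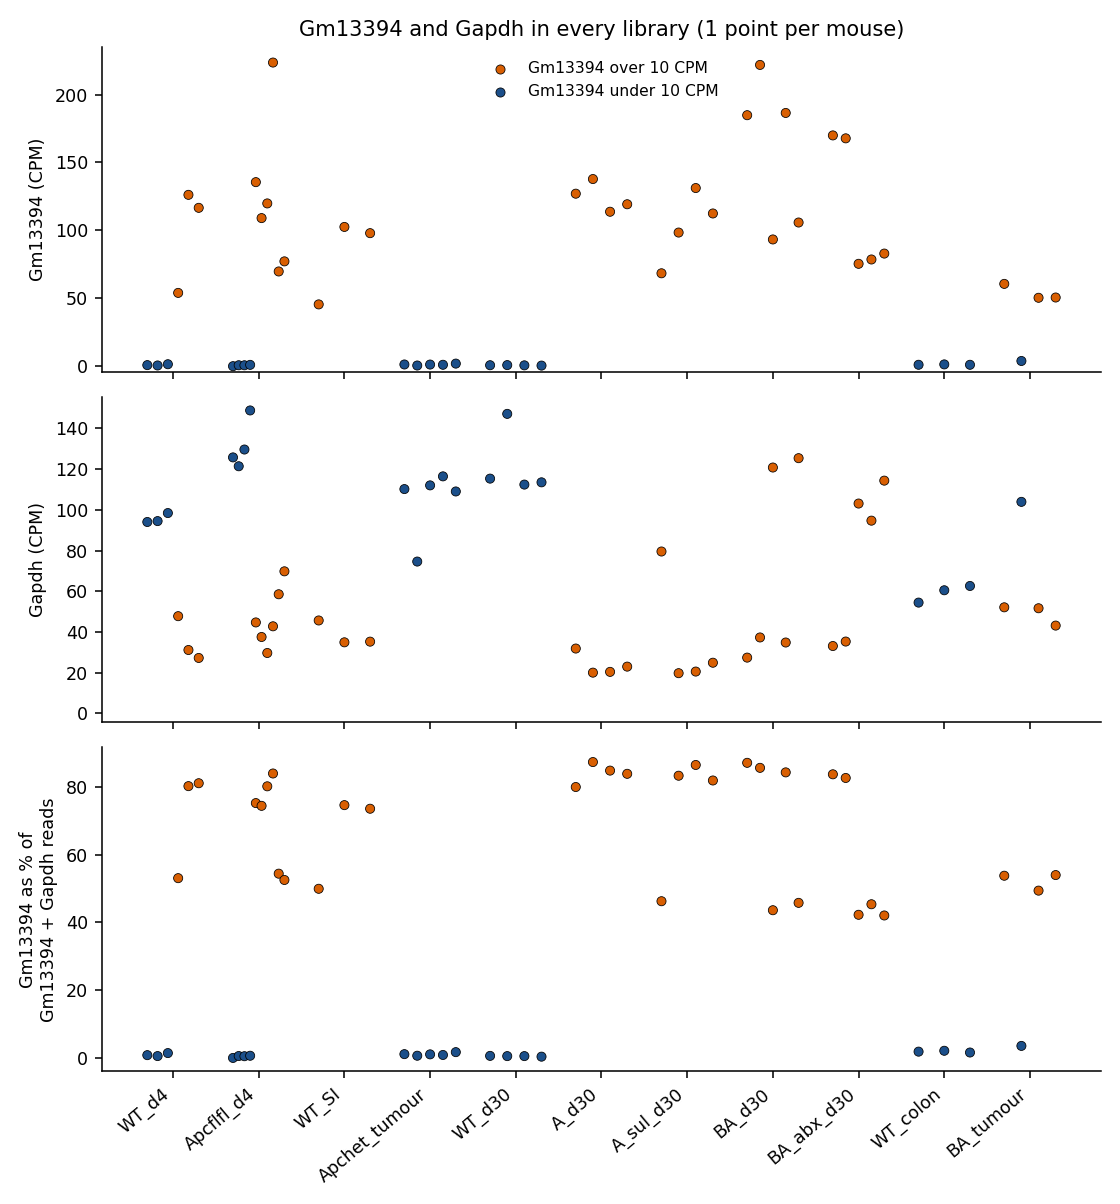
Gm13394 level (top, CPM), Gapdh level (middle, CPM) and Gm13394 as a percentage of the reads of both genes (bottom) in each of the 53 libraries, ordered by group, with 1 point per mouse coloured by whether Gm13394 was over or under 10 CPM. No library lies between 3.83 and 45.5 CPM of Gm13394, and the bottom panel shows shares of at most 3.55% or at least 42.0%.

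Within WT d4, 63 of the 132 members did not overlap between the 3 libraries over and the 3 under 10 CPM of Gm13394, 50 higher and 13 lower in the libraries over the limit. Over all 16640 genes of the same level the share was 36.6% (26.4% higher and 10.2% lower), against 47.7% of members. The window and the split were both picked on these libraries, and nothing is read from these values. The 10 members with the widest separation are given in every library. Pianp, which encodes a ligand of the PILR-alpha receptor, measured 2.38, 3.58 and 2.96 CPM in replicates 1 to 3 and 13.7, 27.1 and 20.6 CPM in replicates 4 to 6, a mean difference of 2.56 in log2(CPM + 0.5). C1s2, a copy of the complement protease gene C1s, measured 0.123, 0.139 and 0.0463 CPM against 1.056, 1.497 and 1.255 CPM, a difference of 1.55. The pseudogene BC064078 measured 1.97, 1.94 and 2.27 CPM against 7.58, 8.62 and 7.75 CPM, and Gm44215 measured 0, 0.104 and 0.0926 CPM against 2.36, 2.40 and 3.10 CPM. All 4 were several-fold higher in every library over the limit.

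The other members of these 10 were separated more narrowly. Iffo1, an intermediate filament family gene whose exons overlap Gapdh on the opposite strand, measured 5.96, 4.86 and 4.58 CPM against 13.1, 11.98 and 11.5 CPM. Cracr2a, a calcium sensor gene, measured 21.4, 11.8 and 18.0 CPM against 55.2, 33.1 and 39.7 CPM. The natural killer receptor gene Klrk1 measured 0.411, 0.660 and 0.787 CPM against 1.37, 3.05 and 2.07 CPM. Klrb1, of the same receptor family, measured 1.07, 0.694 and 0.833 CPM against 4.35, 2.22 and 1.62 CPM. The TEC model Gm45769 was lower, at 1.93, 2.12 and 2.08 CPM against 1.24, 0.359 and 0.443 CPM, as was Gapdh, with a difference of -1.46. Of the lists by role, the cell cycle and DNA repair genes had 5 of 9 higher and none lower, the ribosome, RNA and mitochondria list 4 of 8 higher and none lower, the leukocyte signalling list 6 of 14 higher and 1 lower, and the natural killer complex list 3 of 9 higher and 2 lower. The chromatin and transcription list had 4 of 13 higher and none lower, the epithelial list 4 higher and 4 lower of 14, glycolysis 1 higher and 2 lower of 3, and C1s2, the only complement member, was higher. Of all genes 26.4% were higher and 10.2% lower. Other measures moved with this split: depth was 13550610 to 16699602 reads over the limit and 21605061 to 28809523 under it, the median of all genes was 0.17 higher over the limit, and the 4 proximal colon markers, none at 0 in all 3 libraries of a side, summed to 1428 to 2185 CPM over it and 634.3 to 855.9 CPM under it. The 6 leukocyte markers summed to 196.0 to 339.5 CPM over the limit and 171.9 to 202.7 CPM under it, and the 5 small intestine markers to 6070 to 11170 CPM and 10940 to 11660 CPM. The part of these in the separation of the members was not tested.

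The APCfl/fl d4 group gave the same split in other mice. Here 11 of 132 members (8.33%) did not overlap between the 6 libraries over and the 4 under the limit, against 4.57% of all genes (2.64% higher and 1.93% lower), and without replicate 1, the library of 516985 reads, 14 members (10.6%) against 7.83%. Leaving out a library cannot lower such a count. Pianp measured 1.93, 1.81, 1.77 and 2.24 CPM under the limit and 6.11 to 14.8 CPM over it, with no overlap. The 1.93 CPM of replicate 1 rests on 1 read, in a library where 3 counts correspond to 5.80 CPM. Without that library Pianp did not overlap either. Rhno1, a gene of the DNA damage checkpoint, measured 30.21 to 32.9 CPM under and 34.1 to 42.1 CPM over. The 6 higher members were Gm32536, Pianp, Rhno1, Clec2j, Rpl36a-ps3 and the histone gene H2afj, and the 5 lower were Lpar5, Gapdh, Vwf, Gm6375 and Bcl2l14. C1s2 overlapped: it was 0, 0.0624, 0.442 and 0.121 CPM under the limit and 0.158 to 1.40 CPM over it. The 0 CPM is that of replicate 1, which cannot resolve such low levels. The split rests on a measured value and not on a label, so no p-value is given for either group.

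The remaining sets of libraries differ in Gm13394 together with their label. Between A d30 and WT d30, a contrast that picked the window, 29 members (22%) did not overlap, against 5.4% of all genes (4.28% higher and 1.12% lower) and 5.22% of the 805 other chromosome 6 genes. Between WT SI and the Apcfl/+ tumours the shares were equal, 56.8% of members and 56.8% of all genes (20.6% higher and 36.2% lower). Between BA tumours 1, 3 and 4 and the 4 libraries of tumour 2 and WT colon they were 18.9% and 23% (17.5% higher and 5.5% lower). Taking these 3 sets with WT d4 and APCfl/fl d4 gives 5 sets that share no library. Because WT d4 and A d30 against WT d30 served to pick the window, and Gm13394 with its near-copy Gapdh set the split, the members' counts over these sets are a description and nothing is read from their excess over all genes. Gapdh was lower over the limit in all 5 and Gm13394, which set the limit, higher in all 5; no other gene of 16640 kept 1 direction without overlap in every set. At 4 sets or more there were 9 genes of 16640 (0.0541%), of which 5 of the 132 members (3.79%): Gapdh lower, and C1s2, Pianp, Rhno1 and the pseudogene Clec2j higher. The 4 outside the window were Gm13394, 4930404I05Rik, Oas1b and Ino80e. At 3 sets or more the counts were 10 members (7.58%) and 216 genes (1.30%).

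**Figure D2:**
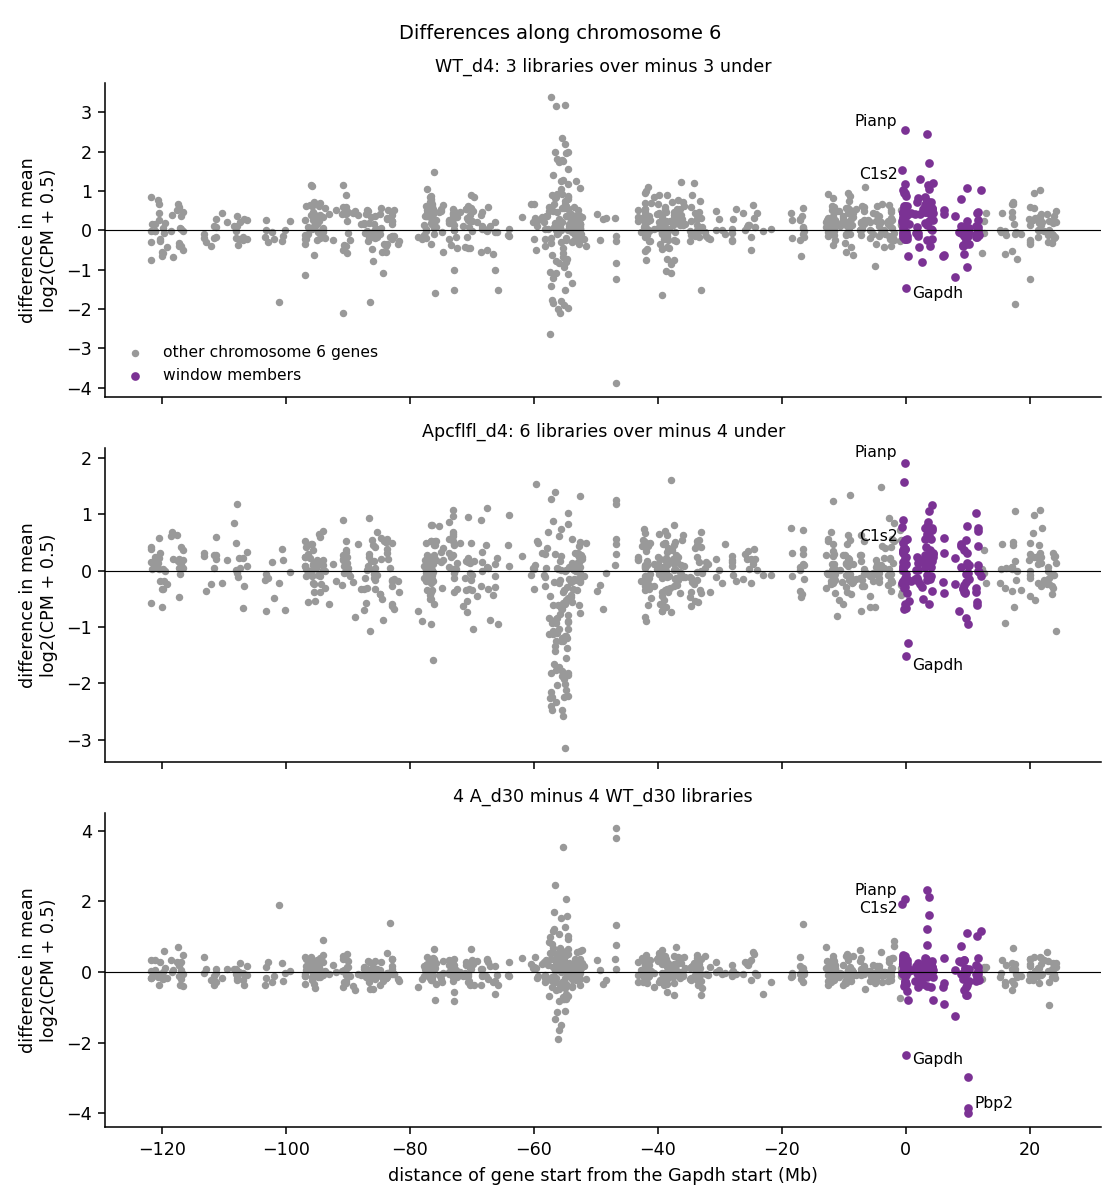
Difference in mean log2(CPM + 0.5) for each chromosome 6 gene with a mean of at least 1 CPM, plotted against the distance of its start from the Gapdh start in Mb; purple points are the 132 window members and grey points the 805 others. Panels show WT d4 libraries over minus under 10 CPM of Gm13394, the same for APCfl/fl d4, and A d30 minus WT d30; Pianp lies highest among the members in the first panel at 2.56, and in the third panel Pbp2 lies among the lowest.

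The 5 members seen in 4 or more sets can be followed through the remaining groups. Pianp measured 11.5 to 19.0 CPM in A d30, 7.53 to 14.6 CPM with sulindac, 4.62 to 11.5 CPM in BA d30 and 6.58 to 15.9 CPM in BA d30 with antibiotics, all above the 2.74 to 3.58 CPM of WT d30. Its levels in WT colon, 0.344 to 0.708 CPM, lay below those of all BA tumours, 1.67 to 3.46 CPM, including tumour 2 at 2.00 CPM. C1s2 measured 4.38, 5.01 and 3.49 CPM in tumours 1, 3 and 4 but 0.333 CPM in tumour 2, and 0.0545 to 0.103 CPM in WT colon. Clec2j measured 2.19 to 6.75 CPM in WT SI and 0 to 0.218 CPM in the Apcfl/+ tumours. Rhno1 did not follow in that set, with 12.3 to 16.8 CPM in WT SI and 13.8 to 19.6 CPM in the tumours. Of the 36-base words of C1s2, 35.9% occur in other genes, most in C1s1, and Rhno1 overlaps Gm26770 and Gm44371 on the opposite strand, so their reads may be divided between genes; Pianp shares no word.

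**Figure D3:**
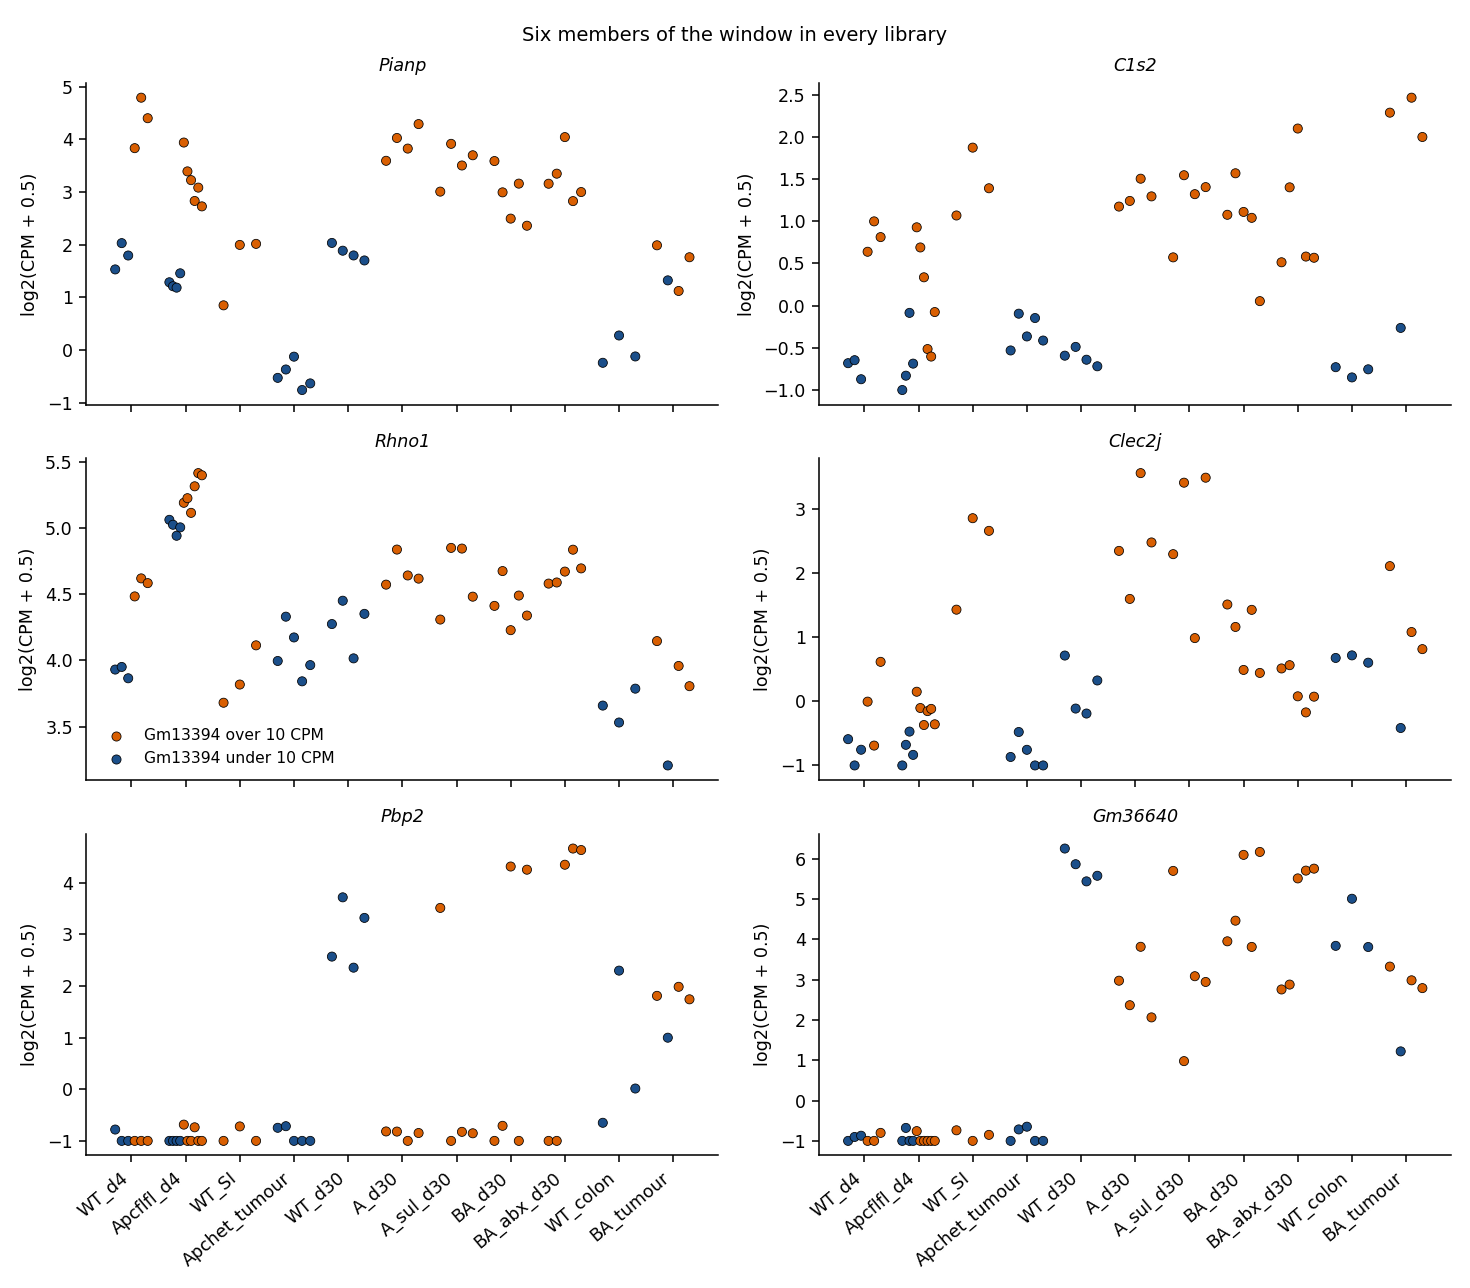
Levels of Pianp, C1s2, Rhno1, Clec2j, Pbp2 and Gm36640 as log2(CPM + 0.5) in every library by group, 1 point per mouse, coloured by whether Gm13394 was over or under 10 CPM. In WT d4 the libraries over the limit stand above the others for Pianp, C1s2 and Rhno1, while Pbp2 and Gm36640 are near 0 CPM in all small intestine groups and divide the day 30 colon groups.

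The comparison of A d30 with WT d30 asks what loss of Alk5 alone changes in the colon, and its groups differ wholly in Gm13394, so that genotype and Gm13394 cannot be told apart. By edgeR's quasi-likelihood test 25 of 17713 genes were called (0.141%, with 0.096% higher) once the p adjusted by Benjamini-Hochberg was held under 0.05, and 16 of the 25 started in the window: 11 of 128 members tested (8.59%) and 5 genes below the level. This contrast was used when the window was picked, so the values are a description and nothing is read from the count. Higher in A d30 were C1s2, Pianp, BC064078, the antisense gene Gm15987, Ptpro and Plbd1; lower were Gapdh, Styk1, Gm36640, Pbp2 and Gm44275. C1s2 measured 1.75, 1.86, 2.33 and 1.95 CPM in A d30 and 0.163, 0.212, 0.141 and 0.108 CPM in WT d30, or 127 counts against 12, a ratio of 12.7 with an exact 95% interval of 7.04 to 25.3 for counting error only. Pianp measured 11.5, 15.8, 13.6 and 19.0 CPM against 3.58, 3.19, 2.96 and 2.74 CPM, a log2 fold change of 2.22 (SE 0.18). Gapdh measured 31.9, 20.02, 20.4 and 23.0 CPM against 115, 147, 112 and 114 CPM, a change of -2.39 (SE 0.19).

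Further members called in A d30 differed by smaller amounts. Plbd1, a phospholipase B domain gene, measured 100, 106, 99.1 and 129 CPM against 51.7, 52.8, 53.3 and 54.5 CPM. Ptpro, a receptor tyrosine phosphatase gene and the last member of the window, measured 19.1, 13.2, 13.6 and 12.2 CPM against 6.41, 6.27, 6.07 and 5.65 CPM. Styk1, a kinase-like gene, measured 68.5, 60.3, 72.6 and 71.3 CPM against 116, 139, 141 and 118 CPM. None of these groups overlapped. No member of the leukocyte (14 tested), natural killer complex (8), cell cycle (9), chromatin (12) or ribosome, RNA and mitochondria (8) lists was called. The median log2 fold change was 0.0070 over members and 0.0085 over all genes, and the medians without sign were 0.25 and 0.18.

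Pbp2, a phosphatidylethanolamine-binding protein gene, and its neighbour Gm44275 (lincRNA) were near absent from A d30, and the antisense gene Gm36640 lay between 3.68 and 13.6 CPM there, against 42.9 to 75.8 CPM in WT d30. Pbp2 gave 3 reads in the 4 A d30 libraries together and 612 in WT d30, a ratio of 0.0059 with an exact 95% counting interval of 0.00121 to 0.0173. Gm44275 gave 0 reads in A d30 and 586 in WT d30, which makes it at least 162-fold lower against 3 counts over the group. Both genes also divided other day 30 groups. In BA d30 Pbp2 measured 0, 0.112, 19.4, 0 and 18.5 CPM in replicates 1 to 5, and in BA d30 with antibiotics 0, 0, 19.9, 24.8 and 24.3 CPM. With sulindac it measured 10.9, 0, 0.0644 and 0.0537 CPM. In WT d30 it measured 5.43, 12.6, 4.61 and 9.47 CPM.

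These values lined up with the share of Gm13394 in the same libraries. The 6 day 30 colon libraries with shares of 42.0 to 46.2% had Pbp2 at 10.9 to 24.8 CPM, Gm44275 at 13.8 to 33.0 CPM and Gm36640 at 45.1 to 71.4 CPM. The 12 libraries with shares of 80.0 to 87.3% had at most 0.112, 0.258 and 21.6 CPM of these genes. The 4 WT d30 libraries, with shares of at most 0.609%, had Gm36640 at 42.9 to 75.8 CPM, overlapping the middle libraries, while their Gm44275 of 5.84 to 10.2 CPM lay below them and their Pbp2 of 4.61 to 12.6 CPM overlapped with the lowest of them. The other colon libraries did not follow the same levels: WT colon, with shares of 1.602 to 2.116%, had Pbp2 at 0.137, 4.41 and 0.510 CPM, and BA tumours 1, 3 and 4, with shares of 49.4 to 54.0%, had 3.00, 3.45 and 2.84 CPM, below the middle libraries of day 30. BA tumour 2, with a share of 3.55%, had 1.497 CPM. In the 24 small intestine libraries Pbp2 was at most 0.122 CPM, so the pattern could not be followed there. The samples were sorted by a measured value after it was seen, so these are descriptions of 22 libraries without a test. Gm36640 and Gm44275 overlap on opposite strands and their reads may be mixed.

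**Figure D4:**
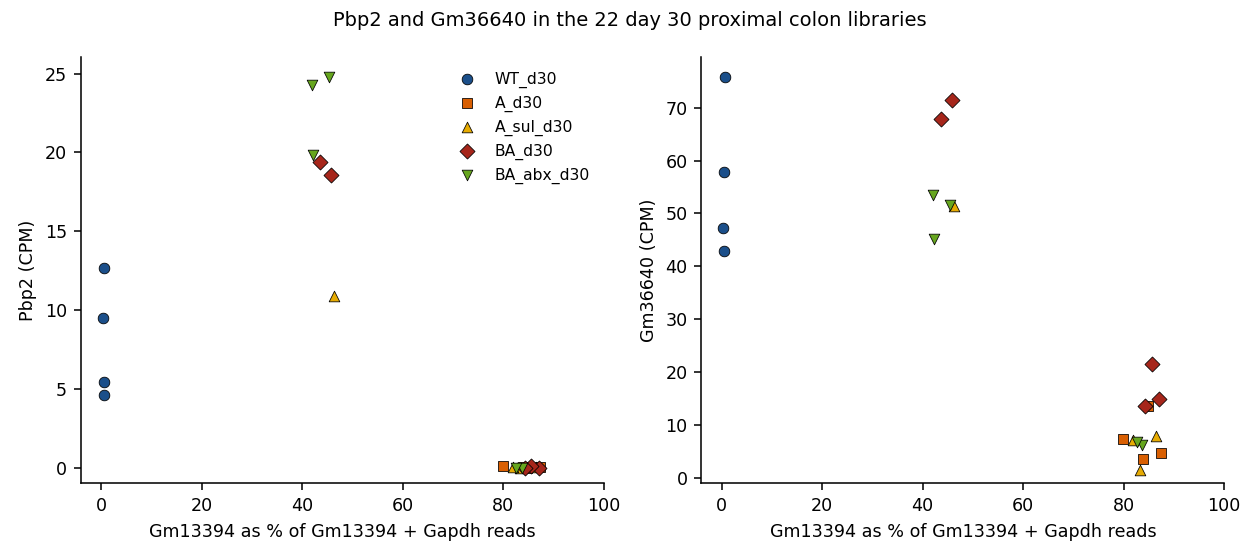
Pbp2 (left) and Gm36640 (right) levels in CPM against Gm13394 as a percentage of the reads of Gm13394 and Gapdh, for the 22 day 30 proximal colon libraries, with a marker for each group. Libraries at 80.0 to 87.3% lie at or near 0 for Pbp2 and at most at 21.6 CPM for Gm36640, and those at 42.0 to 46.2% lie at 10.9 CPM or more and 45.1 CPM or more.

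Sulindac, an inhibitor of prostaglandin synthesis, was given to A mice, and the group was compared with the same 4 WT d30 libraries. Only 9 of 17742 genes were called (0.0507%), 5 of them in the window, and the 3 members among 126 tested (2.38%) were C1s2, Pianp and Plbd1, all higher. The WT d30 libraries also served to pick the window, so nothing is read from this count. C1s2 measured 0.986, 2.42, 2.00 and 2.15 CPM, with a log2 fold change of 3.53 (SE 0.37, adjusted p = 0.0083). Pianp measured 7.53, 14.6, 10.8 and 12.4 CPM, with a change of 1.85 (SE 0.20, adjusted p = 0.0086), and Plbd1 rose by 0.85 (SE 0.11, adjusted p = 0.030). Gapdh, at 79.5, 19.8, 20.6 and 24.9 CPM, did not pass (-1.73, SE 0.43, adjusted p = 0.36) although no library reached the WT d30 range. The count depended on single libraries: it was 7 without sulindac replicate 1, 1 without WT d30 replicate 2 and 0 without WT d30 replicate 1, 3 or 4. For these fits the share of all genes called is not given. Against A d30 no member of 126 was called (0% of all genes, 2 members at an unadjusted p under 0.05, 0 by DESeq2), and Pianp differed by -0.36 (SE 0.21).

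In BA d30, which carries BrafV600E and Alk5fl/fl together, a large part of all genes was called. Against WT d30, 78 of 128 members were called in BA d30 (60.9%), 39 in each direction by edgeR, beside 55.1% of all genes (25.8% higher). Tead4, a transcription factor of the Hippo pathway, measured 2.72, 1.28, 1.46 and 1.72 CPM in WT d30 and 9.77, 10.1, 19.98, 12.6 and 17.7 CPM in BA d30, a rise of 3.12 (SE 0.29, adjusted p = 6.2e-06). Emp1, an epithelial membrane protein gene and the most abundant member, rose by 1.64 (SE 0.11), and Gprc5a, a receptor gene of epithelia, by 1.73 (SE 0.20). C1s2 rose by 3.41 (SE 0.46) and Pianp by 1.40 (SE 0.25). In WT d30 C1s2 gave 12 reads over the group. It passed the low-count filter in 5 of the 9 fits that left out 1 library, and kept its call in those 5. Klrd1, which encodes the CD94 receptor of natural killer cells, fell by 2.74 (SE 0.24), from 3.26, 3.19, 2.78 and 3.07 CPM to 0.495, 0.280, 0.302, 0.288 and 0.645 CPM, and Klrk1, the NKG2D receptor gene, fell by 2.06 (SE 0.39).

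By role, the cell cycle list gave 2 higher and 5 lower of 9 members, with Ccnd2 and Rhno1 higher and Cdkn1b and Ncapd2 among the lower. The leukocyte list gave 5 higher and 1 lower of 14, the natural killer complex list 2 higher (Klrb1, Klra2) and 3 lower (Clec2d, Klrd1, Klrk1) of 8 tested, and the epithelial list 4 higher and 4 lower of 14. In glycolysis Tpi1 rose by 0.56 and Eno2 fell by 1.29. Gapdh did not pass, at -0.67 (SE 0.43, adjusted p = 0.21): its BA d30 levels were 27.4, 37.3, 121, 34.8 and 125 CPM, with replicates 3 and 5 inside the WT d30 range. In this comparison the epithelial markers summed to 10310 to 11800 CPM in BA d30 and 5954 to 6908 CPM in WT d30, and the smooth muscle markers to 743.5 to 3165 CPM and 4508 to 5024 CPM; their part in the members' changes was not tested. Pbp2, with the same libraries apart, was at 0.07 (SE 1.13, adjusted p = 0.97).

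Compared with A d30 directly, with Gm13394 over the limit in all libraries of both groups, 53 of 126 members were called (42.1%), 23 higher and 30 lower, beside 45.3% of all genes (21.7% higher). The share of Gm13394 was not matched, though: it was 79.95 to 87.32% in A d30, but 43.59% and 45.77% in BA d30 replicates 3 and 5. Tead4 rose by 3.20 (SE 0.30), Emp1 by 1.94 (SE 0.19) and Gprc5a by 2.41 (SE 0.27). Gapdh rose by 1.77 (SE 0.47, adjusted p = 0.010) and Gm36640 by 2.60 (SE 0.61, adjusted p = 0.0053), although BA d30 replicates 1, 2 and 4 lay near A d30 for Gapdh. In BA d30 Gm36640 measured 14.97, 21.56 and 13.55 CPM in replicates 1, 2 and 4, and 67.92 and 71.44 CPM in replicates 3 and 5. The part of the share in these rises was not tested. Ano2 fell by 2.44, Plbd1 by 1.64 (SE 0.13) and Ptpro by 1.47 (SE 0.17). Pianp fell by 0.79 (SE 0.25, adjusted p = 0.022), a call lost without BA d30 replicate 3 or without A d30 replicate 2 or 4, at adjusted p-values of up to 0.077. C1s2 was not called (-0.12, SE 0.33, adjusted p = 0.80). The epithelial markers, at 10310 to 11800 CPM in BA d30 and 5719 to 9841 CPM in A d30, moved with this comparison too, and their part was not tested. A d30, BA d30 and the sulindac group share the WT d30 controls, so their values against WT d30 stand side by side and are not evidence for each other.

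Antibiotics in BA mice gave a share of calls below that of all genes, 13 of 121 members (10.7%) beside 13% (4.53% higher), with 2 higher and 11 lower. The largest fall was in Clec2h, a C-type lectin gene of the natural killer complex, from 447, 362, 365, 450 and 506 CPM to 169, 174, 199, 129 and 154 CPM (-1.42, SE 0.13, adjusted p = 0.00017), with no overlap. Its neighbours Clec2e and Clec2d fell by 0.76 and 0.65, so that 3 of 6 tested natural killer complex members fell. Dusp16, a phosphatase gene of MAP kinase signalling, fell by 0.66 (SE 0.10), and Gucy2c by 0.58 (SE 0.11). The higher members were Ncapd2 and Rad51ap1, of chromosome condensation and DNA repair, at 0.46 (SE 0.09) and 0.61 (SE 0.17). The Rad51ap1 call (adjusted p = 0.041) was lost in 6 of 10 fits that left out 1 library, and the count rose to 21 without antibiotics replicate 3. For that fit the share of all genes called is not given, so nothing is read from the rise. Pianp, C1s2, Gapdh and Pbp2 were not called, at adjusted p-values from 0.47 to 0.94.

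**Figure D5:**
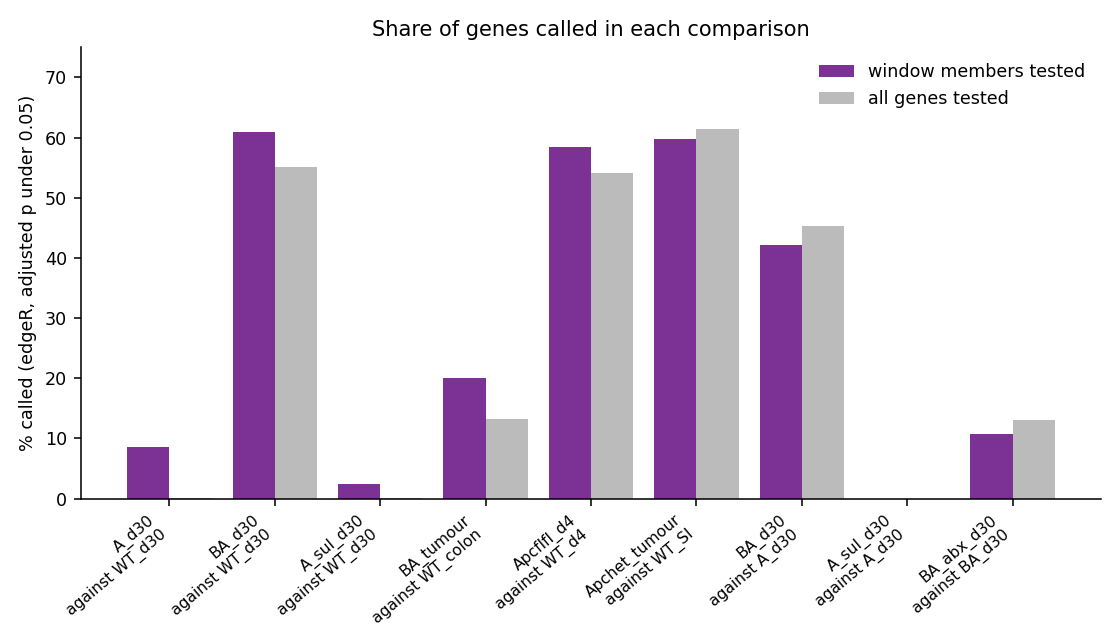
Percentage of genes called by edgeR at an adjusted p under 0.05 in each of the 9 comparisons, for the window members tested (purple) and all genes tested (grey); group names are written as in the other plots. Members stand at 8.59% against 0.141% in A_d30 and at 2.38% against 0.0507% in A_sul_d30, both against WT_d30, and at 60.9% against 55.1% in BA_d30 against WT_d30. The window was picked with A_d30 against WT_d30, and the A_sul_d30 and BA_d30 comparisons use the same WT_d30 libraries. Nothing is read from these differences in share.

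In BA tumours against WT colon, 26 of 130 members were called (20%), 15 higher and 11 lower, beside 13.2% of all genes (7.46% higher). C1s2 rose by 5.13 (SE 0.85, adjusted p = 0.0069) and Pianp by 2.34 (SE 0.44, adjusted p = 0.011). In WT colon C1s2 gave 3, 1 and 2 reads, so the size of its rise is uncertain. It passed the low-count filter in 4 of the 7 fits that left out 1 library, and kept its call in those 4. The matrix gene Mgp rose by 3.27 (SE 0.76), the myeloid lectin receptor gene Clec7a by 2.67 (SE 0.38), the cyclin gene Ccnd2 by 1.79 (SE 0.27) and Tead4 by 2.23 (SE 0.37). Ano2, a chloride channel gene, measured 4.05, 1.58 and 2.22 CPM in WT colon and 0.356, 0.166, 0.111 and 0 CPM in tumours (-4.08, SE 0.75, adjusted p = 0.0098). Ndufa9, of mitochondrial complex I, fell by 1.41 (SE 0.20), with Mrpl51 and Ddx47 falling in the same list of 8. Gapdh did not pass (0.19, SE 0.40, adjusted p = 0.81). The count was 15 and 14 without tumour 3 or 4, and 8, 17 and 10 without WT colon replicate 1, 2 or 3. Over the 7 fits that left out 1 library it ran from 8 to 33. The share of all genes called in these fits is not given. The Pianp call was lost without WT colon replicate 1 or 3 (adjusted p up to 0.067) and the Ano2 call without WT colon replicate 1 (adjusted p = 0.057). The leukocyte markers summed to 477.3 to 1047 CPM in tumours and 243.3 to 278.2 CPM in WT colon, and the proximal colon markers to 5183 to 26020 CPM and 26250 to 36970 CPM; their part in the members' changes was not tested. Gm13394 over or under 10 CPM was also added as a term, an alternative chosen after seeing the data. All WT colon libraries lay under the limit, and tumour 2 was the only tumour there, so the tumour effect then rested on tumour 2 alone. In that fit C1s2 was at 2.26 and Ano2 at -3.56, and no conclusion is drawn from these values.

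Acute loss of Apc, which releases Wnt signalling in the small intestine, was compared in APCfl/fl d4 and WT d4, both of which hold libraries on each side of the limit. There 72 of 123 members were called (58.5%), 29 higher and 43 lower, beside 54.2% of all genes (27.5% higher). With Gm13394 as a term 76 members were called, but the share of all genes in that fit is not given, so nothing is read from that count. The cell cycle list rose in 7 of 9 members, among them Rad51ap1 (1.00, SE 0.17), Foxm1 (0.84, SE 0.17) and Ccnd2 (1.11, SE 0.20), and Cdkn1b fell by 0.45 (SE 0.10). The ribosome, RNA and mitochondria list rose in 5 of 8, with Emg1 and Nop2, both of ribosome assembly, at 1.03 and 0.98. The leukocyte list fell in 9 of 13 tested, with Cd4 at -1.20 and Lag3 at -0.94, and the natural killer complex list in 7 of 9, with Clec2h at -1.46 and Klrd1 at -1.57. Ptpro rose the most of all members, by 2.22 (SE 0.31), from 1.44 to 5.21 CPM in WT d4 to 7.74 to 19.7 CPM. Pianp and Gapdh, whose libraries separated by Gm13394 within both groups, and C1s2, which separated in WT d4 but overlapped in APCfl/fl d4, were not called, at -1.04, -0.03 and -0.42 with SEs of 0.54, 0.39 and 0.65. The leukocyte markers summed to a median of 112.1 CPM in APCfl/fl d4 and 199.4 CPM in WT d4, and the small intestine markers to 3335 and 11060 CPM; their part in the changes of these lists was not tested.

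In Apcfl/+ tumours against WT SI, 76 of 127 members were called (59.8%), 35 higher and 41 lower, beside 61.5% of all genes (31.4% higher). Every WT SI library lay over the limit and every tumour under it, so tumour and Gm13394 cannot be told apart. Gapdh rose by 1.44 (SE 0.21), from 45.6, 34.9 and 35.2 CPM to 74.6 to 116 CPM. Pianp fell by 3.63 (SE 0.47), C1s2 by 2.88 (SE 0.32), Clec2j by 6.15 (SE 0.69) and Gm44215 by 6.81 (SE 0.49). In the tumours Clec2j gave 1, 4, 2, 0 and 0 reads and Gm44215 gave 1, 1, 5, 0 and 5. There 3 counts correspond to 0.138 CPM at the median depth, so the size of the falls in Clec2j and Gm44215 is uncertain. Gm44215 measured 12.6, 11.8 and 13.5 CPM in WT SI and at most 0.230 CPM in tumours, but 57.7% of its words occur in other genes, most in D10Wsu102e. The natural killer complex list fell in 7 of 9, and the chromatin list gave 7 higher and 3 lower of 13. Ptpro again rose the most, by 3.22 (SE 0.27). The small intestine markers summed to 24.35 to 3834 CPM in tumours and 7592 to 13540 CPM in WT SI, and their part in these changes was not tested.

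The 2 Apc comparisons share no library, and the difference between them was tested as an interaction: 34 of 129 members passed (26.4%), beside 24.7% of 22202 genes. For the BA effect in tumours against that at day 30, 27 of 132 members passed (20.5%), beside 16.3% of 20637 genes. The WT d4 and WT d30 libraries in these differences also served to pick the window, so nothing is read from the counts.

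The genes next to the limits that chose the members are given as a description. Just outside the proximal limit lie C1rl, C1ra and C1s1, of the complement system, with differences of 0.18, 0.29 and -0.02 in WT d4, all overlapping; just inside are C1s2 at 1.55 and Lpcat3 at 0.23, both without overlap. At the distal limit Rerg (-0.11, overlapping) and Ptpro (1.03, no overlap) lie inside, and Eps8 (-0.58, no overlap), Strap (0.24) and Dera (-0.07) outside. At the level limit, Gm43124, A230083G16Rik and Gm44216, at 0.972, 0.975 and 0.981 CPM, were left out, although Gm44216 was higher over the limit of Gm13394 without overlap in 4 of the 5 sets, by 0.90 in WT d4 and 2.23 in A d30 against WT d30. BC035044, Cd27 and Gm15987, at 1.03, 1.10 and 1.10 CPM, were kept, with differences of 0.48, 0.40 and 1.06 in WT d4, of which that of Cd27 overlapped. Divided into 5 stretches of equal length from proximal to distal, the members without overlap in A d30 against WT d30 numbered 9 of 52, 9 of 38, 1 of 4, 2 of 12 and 8 of 26, beside 5.4% of all genes, and those in WT d4 numbered 27, 21, 2, 6 and 7, beside 36.6%. Both sets served to pick the window, and nothing is read from these counts.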

How the data were processed

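Bulk RNA of 53 mouse intestine libraries was analysed from the deposited table of raw read counts per gene. The authors trimmed paired 36-base reads with Trim Galore 0.6.4 after FastQC 0.11.8, aligned them to GRCm38 with HISAT2 2.1.0 and made the counts with featureCounts 1.6.4; the strand setting and the handling of reads with several matches are not given in the sources used here, and both bear on Gapdh, Gm13394 and overlapping genes. Gene positions and types matched 55240 of 55421 identifiers. Window members and gene lists were chosen with earlier results of these data known. CPM were scaled to the library total, and differences between libraries split on Gm13394 were taken on log2(CPM + 0.5), without a test. Groups were compared in R 4.3.3 with edgeR 4.0.16 (TMM scaling, filterByExpr, quasi-likelihood test) over all genes that passed the filter, fitted on the libraries of the comparison alone, and adjusted by Benjamini-Hochberg at 0.05. Adjusted p-values throughout come from these fits. Standard errors (SE) were computed as the absolute log2 fold change divided by the square root of the F statistic. The fits were tried on counts simulated for A d30 against WT d30 and APCfl/fl d4 against WT d4, with 200 genes changed by a log2 of 2. They recovered 90.5% and 92% of these, and 4.74% and 4.66% of calls were unchanged genes. The simulated counts held no split by Gm13394, so they do not test the fits on such groups. Counting intervals are exact, at 95%, and cover counting error only; depth is 10005066 to 32824795 reads apart from 1 library of 516985. Values in every library were given for the 10 members with the widest separation in WT d4, for Gapdh and Gm13394, for members with the largest and smallest fold change, or their range, and for genes chosen after their values were seen (Rhno1, Clec2j, Plbd1, Styk1, Gm44275, Clec2h and Klrd1). Alternatives were DESeq2 1.42.0, RLE scaling, no filter, other level limits, a replicate block and leaving out each library. Replicates were separate mice. Same-numbered libraries were not paired by any label.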

Additional observations from a re-analysis of the deposited data

Results flagged for a closer look

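Single libraries stood apart from the rest of their group in 12 of 90 gene and group combinations tested, by a gap that chance gives in about 1 in 20. Gapdh measured 79.5 CPM in sulindac replicate 1 (others 19.8 to 24.9), 103.9 CPM in BA tumour replicate 2 (43.1 to 52.1), 74.6 CPM in Apcfl/+ tumour replicate 2 (109 to 116) and 147 CPM in WT d30 replicate 2 (112 to 115). Cracr2a measured 17.98 CPM in BA d30 antibiotics replicate 2 (28.1 to 31.2), 36.03 CPM in BA d30 replicate 4 (27.3 to 28.8) and 60.3 CPM in BA tumour replicate 1 (17.7 to 24.1). BC064078 measured 22.8 CPM in APCfl/fl d4 replicate 8 (3.87 to 8.22) and 1.365 CPM in WT d30 replicate 3 (0.815 to 0.903). Gm44215 measured 1.41 CPM in WT d30 replicate 1 (0.0531 to 0.235) and 3.87 CPM in APCfl/fl d4 replicate 1 (0 to 1.69), where it rests on 2 reads of 516985. Gm45769 measured 2.59 CPM in WT d30 replicate 3 (3.48 to 3.56).

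The Apc comparisons differed for some named members when the difference itself was tested with edgeR. These members were named for their wide separation within WT d4, and the WT d4 libraries enter the Apc difference. The Apcfl/+ tumours and WT SI also differ wholly in Gm13394 and were labelled N9, against N6 for the day 4 groups. Nothing is read from the p-values below, and in the Apcfl/+ tumours Gm44215 gave at most 5 reads per library. The log2 fold change in Apcfl/+ tumours against WT SI minus that in APCfl/fl d4 against WT d4 was -2.67 for Pianp (adjusted p = 0.044), 1.11 for Iffo1 (adjusted p = 0.032), -6.21 for Gm44215 (adjusted p = 0.0017), -1.81 for Klrb1 (adjusted p = 0.041) and -1.60 for Klrk1 (adjusted p = 0.039). The change in BA tumours against WT colon minus that in BA d30 against WT d30 was 1.68 for Iffo1 (adjusted p = 0.0026) and 1.78 for Klrk1 (adjusted p = 0.047). The WT d30 libraries in this difference also served to pick the window.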

How the results depend on the processing

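The number of members called moved by over 1.5 times in 4 comparisons. The share of all genes called under each alternative setting is not given here or beside the alternative counts above. These counts therefore describe the settings, and nothing is read from them about the members. For A d30 against WT d30 (11) it was 20 by DESeq2 and 6 at a mean CPM of 5 or more; for sulindac against WT d30 (3) it was 13 by DESeq2, 5 with no low-count filter and 5 at a mean CPM of 0.5 or more; for BA tumours against WT colon (26) it was 17 at a mean CPM of 5 or more; and for antibiotics (13) it was 22 by DESeq2. With the replicate number as a block the counts were 0 for sulindac against WT d30 and 11 for BA tumours, where Pianp was no longer called (adjusted p = 0.073). Deviations from the group means were correlated between same-numbered libraries, at -0.475 to 0.283. All correlations were positive in BA d30 against WT d30 (0.0151 to 0.13) and in Apcfl/+ tumours against WT SI (0.00961 to 0.0793). All were negative in sulindac against A d30, and the other comparisons had both signs. No label pairs these libraries, and whether the numbers mark pairs was not tested. Leaving out 1 library at a time gave 8 to 12 for A d30, 67 to 78 for BA d30 and 0 to 7 for sulindac against WT d30, 8 to 33 for BA tumours, 64 to 80 for APCfl/fl d4, 65 to 94 for Apcfl/+ tumours, 41 to 56 for BA d30 and 0 to 0 for sulindac against A d30, and 9 to 21 for antibiotics. In the WT d4 split (63) it gave 67 to 85 members without overlap, a count that leaving out a library cannot lower. There TMM scaling gave 56, and level limits of 0.5 and 5 CPM gave 76 and 44. The share of all genes is not given for these alternatives, so nothing is read from them about the members. For 46 single-gene results called in the main fits, 565 results under an alternative stayed under the threshold, 49 lost it and 0 reversed. Genes not called in the main fits were not followed. Alternatives in which the gene was filtered out or had no adjusted p were not counted. The fits that left out 1 library share most of their libraries, so these results are not independent of each other. The cause of these moves was not tested, except that fewer members are tested at the higher level limit. The rise in members without overlap when a library is left out follows from how overlap is defined.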
